A study of Gnathonemus petersii with 18 samples.

Results

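The genes examined encode the proteins of the mitochondrial ribosome. They were taken as every gene of the deposited expression table whose symbol begins with mrpl or mrps followed by a number, ignoring case, which gave 72 of 28031 genes. By symbol, 43 belong to the large subunit (mrpl) and 29 to the small subunit (mrps). RNA was sequenced from the trigeminal ganglion, the spinal cord and the cerebellum of Gnathonemus petersii, the elephantnose fish, which senses its surroundings with weak electric fields, with 6 libraries per tissue and 18 in all. The titles call the cerebellum libraries brain, while their source and tissue labels say cerebellum. The labels state that the tissues were taken from 6 individual fish. They name no genotype, treatment or age, so tissue is the only difference between the groups that the labels give. The series title concerns the origin of fine touch in vertebrates, and neurons of the trigeminal ganglion serve touch on the head.

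Mitochondria carry their own ribosomes, which translate the few proteins encoded in mitochondrial DNA, all of them parts of the respiratory chain and the ATP synthase in vertebrates. The protein parts of these ribosomes are encoded in the nucleus, made in the cytosol and imported, while the ribosomal RNAs are transcribed inside the mitochondrion. Some of the proteins have counterparts in bacterial ribosomes, and others were added during the evolution of mitochondria. Neurons depend heavily on oxidative phosphorylation, and inherited defects of mitochondrial translation in humans often affect the nervous system, heart and liver. Roles given below are known from bacteria, yeast or mammals and are carried over by name.

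Summed gene counts were 10413024 to 14183733 in the ganglion libraries, 10346375 to 13379441 in spinal cord and 10953416 to 17587837 in cerebellum. Tissue markers followed the labels: 6 ganglion markers summed to 907 to 1761 CPM in ganglion, 45.7 to 59.8 CPM in spinal cord and 7.27 to 14.1 CPM in cerebellum. The 7 spinal cord markers reached at most 1.13 CPM in ganglion, against 1012 to 1396 CPM in spinal cord, and the 6 cerebellum markers at most 39.3 CPM in ganglion and 177 CPM in spinal cord, against 2921 to 3708 CPM in cerebellum. Ganglion replicate 5 stood apart: it had a TMM scaling factor of 0.611, and 32.2% of its counts fell in 50 genes. Replicate 2 was less extreme, with a factor of 0.814 and 20.9%. Replicates 1, 3, 4 and 6 had factors of 0.974 to 1.06 and 15.4% to 17.6%. Values of many genes of the family stood apart in both replicates 2 and 5, as given below. Of 11 skeletal muscle markers 4 were present in the table, with sums of 475 to 4595 CPM in ganglion, 1516 to 2737 CPM in spinal cord and 631 to 861 CPM in cerebellum. The muscle actin gene acta1 alone had 3.65 to 3252 CPM in ganglion, 106 to 1295 CPM in spinal cord and at most 0.863 CPM in cerebellum. The cerebellum sums thus came from the other markers, as did most of the 2559 CPM of ganglion replicate 5, where acta1 had 13.6 CPM. Of 8 genes listed as markers of myelin and Schwann cells 5 were present, mpz among them. They summed to 5080 to 22537 CPM in ganglion, highest in replicate 5, 2518 to 4513 CPM in spinal cord and 126 to 224 CPM in cerebellum. Whether this RNA came from peripheral or central myelin was not tested. All the muscle and myelin markers present in the table had counts in each tissue, and the part of these cells in the results below was not tested. In such bulk samples, fewer cells of a type and less RNA per cell cannot be told apart.

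The family was lowest in spinal cord by CPM and by TPM. All 72 genes had at least 1 count in every library, and together they took 0.267% to 0.396% of the counts in ganglion, 0.158% to 0.192% in spinal cord and 0.27% to 0.302% in cerebellum. The median log2 CPM over the 71 genes that passed the filter on low counts was 4.94 to 5.96 in ganglion, 4.22 to 4.53 in spinal cord and 4.82 to 5.15 in cerebellum. Here CPM means counts scaled to a common library size with TMM factors, which rest on genes of middling fold change. In TPM, which divides by gene length and gives every library the same total, the 72 genes summed to 5806 ± 856 in ganglion, 3600 ± 224 in spinal cord and 6461 ± 353 in cerebellum (SD, n = 6 each). Spinal cord was the lowest tissue on both scales, without overlap with either other tissue. Ganglion and cerebellum overlapped on both scales, and ganglion had the higher mean by CPM but the lower mean by TPM.

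**Figure D1:**
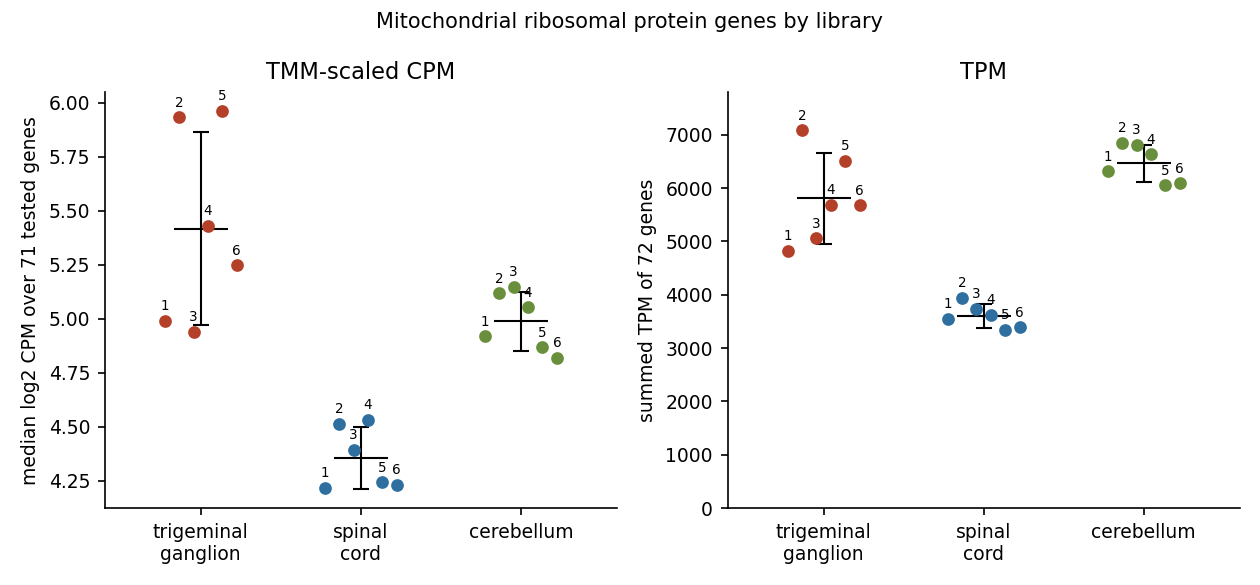
Level of the mitochondrial ribosomal protein genes in each library, as the median log2 CPM over 71 tested genes (left, axis not from 0) and as summed TPM over 72 genes (right). Each numbered point is a library, and lines give the mean and SD of 6 libraries. Spinal cord sits below both other tissues in both panels, at 4.22 to 4.53 and at 3345 to 3945, whereas ganglion and cerebellum overlap and change order between the panels.

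Between genes, levels are comparable only per length, so TPM was used. The most abundant were mrpl17 with a mean of 215 TPM over the 18 libraries, mrpl57 with 186 TPM, mrps21 with 176 TPM and mrps18b with 170 TPM. Products of mrpl17 and mrps21 correspond to the bacterial proteins L17 and S21, and mrps18b is one of the family's copies of bacterial S18. The product of mrpl57 is a small protein of the large subunit found in mitochondria. Among tested genes, mrpl15 with 16.03 TPM, mrps5 with 16.6 TPM and mrps15 with 18.4 TPM were the lowest. The median gene stood at 61.6 TPM, and the 10 most abundant genes held 32.1% of the summed TPM of the family. The gene mrpl16 had 1 to 17 counts per library and failed the filter, so it has no test.

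With the subunits taken by symbol, the ratio of summed mrpl to summed mrps TPM was 1.57 to 1.83 in ganglion, 1.74 to 1.96 in spinal cord and 1.64 to 1.74 in cerebellum. Ganglion overlapped both other tissues in this ratio. Spinal cord and cerebellum were separated only by 1.74223 in spinal cord replicate 3 against 1.74188 in cerebellum replicate 1. In mammals mrps18a and mrps30 sit in the large subunit and mrps36 in neither, and the ratio with these genes placed so was not computed. The separation is thus not secure. The lowest value, 1.57, was that of ganglion replicate 5.

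The first comparison asked how ganglion and spinal cord differ. Mitochondrial ribosomal protein genes were higher in ganglion: 41 of 71 passed an adjusted p of 0.05 with at least a 2-fold difference and none passed in the other direction, where 14.5% and 17.3% of all tested genes passed. At any fold, 62 were higher and 0 lower, where 25.1% and 25.2% of all tested genes were. The libraries did not overlap for 51 genes, all higher in ganglion, against 13.4% of all tested genes higher and 16.6% lower. The median log2 fold change of the family was 1.08, against -0.01 over all tested genes. By limma on log2(TPM + 1) it was 0.59, against -0.37 over all genes, with 45 genes higher and 2, mrps5 and mrps11, lower at any fold (13.6% and 40.9% of all genes), and all 45 were also among the 62. At 2-fold on that scale 10 were higher and 1 lower (5.92% and 21.4% of all genes). Of all genes called at 2-fold, 45.5% were higher in ganglion by edgeR and 21.7% by limma on TPM.

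Among small-subunit genes, mrps25, whose product is found in mitochondrial and not in bacterial ribosomes, had 28.9, 40.8 and 395 CPM in ganglion as lowest, median and highest library, against 17.7, 19.1 and 25.4 CPM in spinal cord. No library overlapped, but ganglion replicates 2 and 5, with 190 and 395 CPM, stood far above the other 4 ganglion libraries at 28.9 to 42.9 CPM. Its log2 fold change was 2.56 ± 0.52 (approximate SE, obtained from the F statistic) at an adjusted p of 0.000416 by the edgeR quasi-likelihood test. Without replicates 2 and 5, a choice made after seeing the data, it was 0.82 (adjusted p = 4.45e-05), and without replicate 5 alone 1.70.

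A second mitochondria-particular gene of the small subunit, mrps26, had 28.9, 48.1 and 255 CPM in ganglion, against 15.6, 18.2 and 19.1 CPM in spinal cord. Again the tissues did not overlap and replicates 2 and 5 were the highest, at 136 and 255 CPM. The log2 fold change was 2.35 ± 0.43 (adjusted p = 0.000128), and 1.13 without those libraries. The gene mrps17, whose product corresponds to the bacterial rRNA-binding protein S17, had 35.0, 42.9 and 86.9 CPM in ganglion, against 11.4, 13.6 and 16.9 CPM in spinal cord. Its tissues were well separated, with a log2 fold change of 1.92 ± 0.21 (adjusted p = 2.78e-07) and of 1.49 without replicates 2 and 5. For mrps6, the counterpart of bacterial S6, ganglion had 20.3, 39.6 and 133 CPM and spinal cord 12.8, 14.9 and 19.4 CPM, without overlap (log2 fold change 1.82 ± 0.33, adjusted p = 0.000122).

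Other small-subunit genes of this comparison were mrps28 (log2 fold change 1.81), mrps36 (1.61) and mrps24 (1.37), whose products are a counterpart of bacterial S1, a protein also described as part of the 2-oxoglutarate dehydrogenase complex in mammals, and a counterpart of bacterial S3. All 3 were higher in ganglion without overlap, at adjusted p of 3.05e-05, 6.69e-05 and 3.13e-05.

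In the large subunit, mrpl22, whose bacterial counterpart L22 lines the tunnel through which the new protein leaves, led with 20.9, 28.5 and 122 CPM in ganglion, against 9.15, 12.7 and 14.9 CPM in spinal cord. Every ganglion library lay above every spinal cord library, and the log2 fold change was 1.94 ± 0.36 (adjusted p = 0.000139). The mitochondria-particular gene mrpl54 had 36.5, 46.2 and 162 CPM in ganglion, against 17.2, 19.97 and 24.6 CPM in spinal cord. It too was separated (log2 fold change 1.81 ± 0.31, adjusted p = 6.94e-05), with the highest values, 101 and 162 CPM, in replicates 2 and 5.

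Further large-subunit genes were higher in ganglion without overlap by log2 fold changes between 1.37 and 1.66. Those with bacterial counterparts were mrpl4 (1.57), another protein of the exit tunnel, mrpl30 (1.55), mrpl10 (1.52), at the base of the stalk that binds translation factors, mrpl24 (1.46), near the tunnel exit, and mrpl17 (1.37). Those particular to mitochondria were mrpl40 (1.66), mrpl57 (1.49), mrpl42 (1.46), mrpl48 (1.46) and mrpl51 (1.37). For mrpl58, a peptidyl-tRNA hydrolase that became part of the ribosome, ganglion had 14.0, 20.2 and 137 CPM and spinal cord 14.6, 16.8 and 21.3 CPM. The tissues overlapped, the log2 fold change of 1.44 ± 0.44 (adjusted p = 0.0108) rested on replicates 2 and 5, and without them it was 0.06 (adjusted p = 0.787). With replicate number as a block it was 1.01 (adjusted p = 0.0664), and by limma on TPM 0.46 (adjusted p = 0.241). Without replicate 5 alone, mrpl58 stood at 0.75 (adjusted p = 0.0626) and mrpl4 at 0.97 (adjusted p = 0.00152).

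At the other end, 9 genes were not called, 5 of which had the lowest log2 fold changes. The lowest was mrps5, whose bacterial counterpart S5 lies near the site where mRNA enters, with 0.626, 10.5 and 13.1 CPM in ganglion and 10.04, 12.5 and 25.3 CPM in spinal cord. The tissues overlapped, and ganglion replicate 5 held only 4 counts of this gene. The log2 fold change was -0.84 ± 0.41 (adjusted p = 0.0964). By limma on TPM it was -1.33, and called lower (adjusted p = 0.0206). Next came mrps23 at -0.17, mrpl3 at -0.12, mrps11 at 0.02 and mrpl15 at 0.16, with adjusted p of 0.5 to 0.935, and the remaining uncalled genes were mrpl38, mrps9, mrpl52 and mrpl37, at 0.20 to 0.30. The sign of mrps23, mrpl3, mrps11 and mrpl15 was not stable: without ganglion replicate 5 mrps23 and mrpl3 stood at 0.02 and 0.03, and by limma on TPM mrps11 and mrpl15 stood at -0.40 and -0.27.

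**Figure D2:**
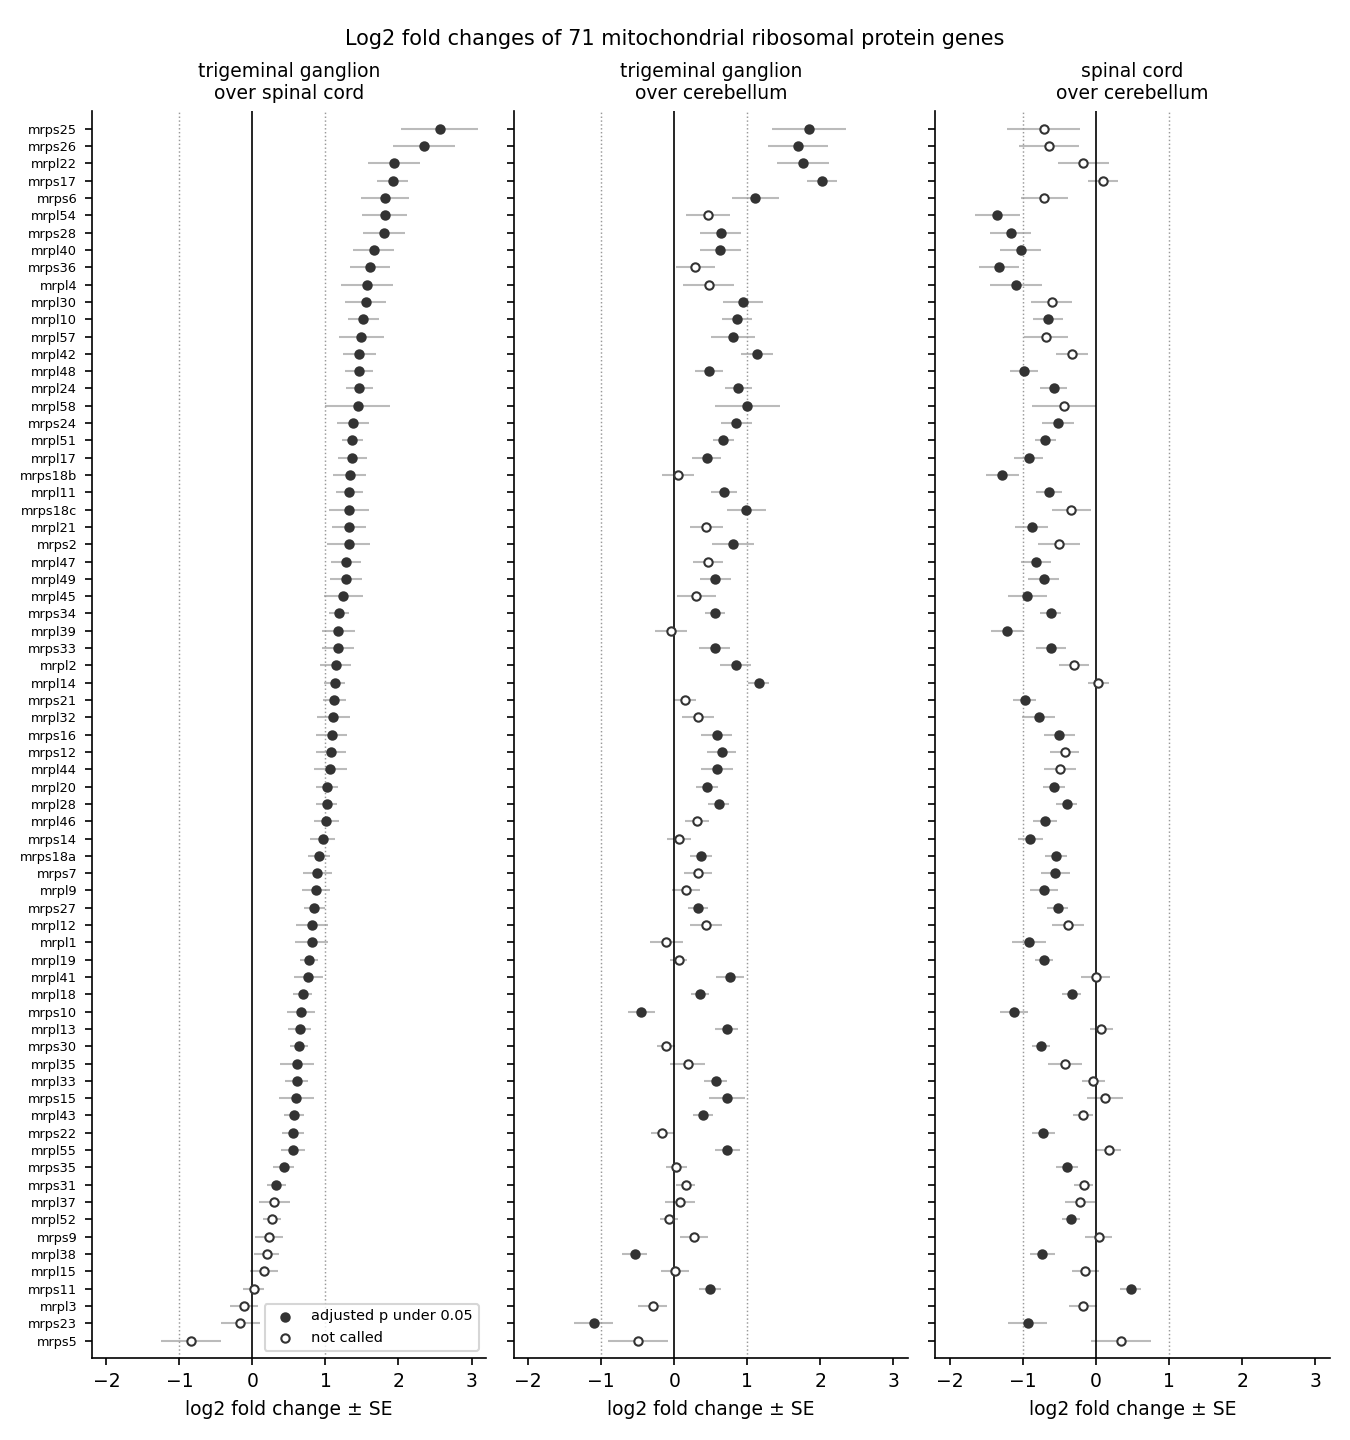
Log2 fold change of each of 71 tested genes in the 3 comparisons by the edgeR quasi-likelihood test, with bars of 1 approximate SE; filled points have an adjusted p under 0.05, and dotted lines mark a 2-fold difference. Genes run down the page by the ganglion over spinal cord value, from mrps25 at 2.56 to mrps5 at -0.84. Filled points lie to the right in the left panel (62 genes) and mostly to the left in the right panel (41 of 42). In the middle panel 40 lie to the right and 3 to the left by this scaling, a direction that turns on the TPM scale.

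Leaving out ganglion replicates 2 and 5 gave 16 genes higher in ganglion at 2-fold (10.7% of all tested genes) and 61 at any fold (22.7%), with 0 lower at either (16.1% and 25.3%). The median log2 fold change was then 0.72. Without the 4 libraries highest in the muscle actin gene acta1 (spinal cord replicates 1, 3 and 5 and ganglion replicate 1, a choice also made after seeing the data), 41 were higher at 2-fold (13.8% of all tested genes) and 56 at any fold (18.9%).

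The second comparison asked how spinal cord and cerebellum differ. Mitochondrial ribosomal protein genes were lower in spinal cord: 8 of 71 passed at 2-fold and none in the other direction, where 16.3% of all tested genes were lower and 28.9% higher. At any fold 41 were lower and 1 higher, where 29.3% and 35.7% of all tested genes were. The libraries did not overlap for 38 genes, all lower in spinal cord (24.6% of all tested genes lower, 27.3% higher). The median log2 fold change was -0.58, against 0.08 over all tested genes. By limma on TPM it was -0.79, against -0.14 over all genes, with 55 genes lower (36.6% of all genes) and 0 higher (29.6%), and all 41 were among the 55. At 2-fold on that scale 17 were lower and 0 higher (19.1% and 19.8% of all genes). Of all genes called at 2-fold, 64.0% were higher in spinal cord by edgeR and 50.9% by limma on TPM. The 8 genes are thus fewer than the share of all genes that was lower at 2-fold by edgeR, and the differences were mostly under 2-fold.

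The largest differences were in mrpl54, mrps36 and mrps18b. The gene mrpl54 had 17.2, 19.97 and 24.6 CPM in spinal cord, against 36.8, 53.5 and 60.0 CPM in cerebellum, a log2 fold change of -1.35 ± 0.31 (adjusted p = 0.000742). The gene mrps36 had 23.2, 32.5 and 36.9 CPM in spinal cord, against 60.3, 79.9 and 97.2 CPM in cerebellum (log2 fold change -1.32 ± 0.27, adjusted p = 0.000313). The gene mrps18b, one of the family's copies of bacterial S18, had 31.2, 40.7 and 48.7 CPM in spinal cord, against 75.3, 105 and 111 CPM in cerebellum (log2 fold change -1.28 ± 0.23, adjusted p = 6.16e-05). In none of them did a spinal cord library reach the lowest cerebellum library.

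The other genes lower at 2-fold were mrpl39 at -1.22, mrps28 at -1.17, mrps10 at -1.12, mrpl4 at -1.097 and mrpl40 at -1.03, each without overlap. Products of mrps10 and mrpl4 correspond to bacterial S10 and L4, and those of mrpl39 and mrpl40 are particular to mitochondria. Without the 4 libraries highest in acta1, mrpl4 stood at -0.92 (adjusted p = 0.1). That set of libraries gave 28 genes lower and 0 higher at any fold (22.9% and 30.5% of all tested genes), with 8 lower at 2-fold, under the 15.3% of all tested genes. Without ganglion replicates 2 and 5, which share the estimate of the spread, 53 were lower and 1 higher at any fold (34% and 39.1% of all genes) and 8 lower at 2-fold (16.5%, with 29.5% higher). Spinal cord libraries carried more muscle and myelin marker RNA than cerebellum libraries, as given above.

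The single gene higher in spinal cord was mrps11, whose bacterial counterpart S11 sits on the platform of the small subunit. It had 17.3, 20.3 and 23.7 CPM in spinal cord, against 12.4, 14.3 and 18.5 CPM in cerebellum. The ranges overlapped through cerebellum replicate 1, and the log2 fold change was 0.47 ± 0.15 (adjusted p = 0.00869). The call was lost by limma on TPM (0.26, adjusted p = 0.166), with library totals (0.37, adjusted p = 0.0764) and without the libraries high in acta1 (0.48, adjusted p = 0.0532). In mrps5 the log2 fold change was 0.34 ± 0.41, with the highest values of each tissue in replicates 5 and 6, at 23.1 and 25.3 CPM in spinal cord and 15.02 and 17.6 CPM in cerebellum. The remaining genes at this end, mrpl55 at 0.17, mrps15 at 0.12 and mrps17 at 0.10, did not pass (adjusted p of 0.377 to 0.68), and by limma on TPM they stood at -0.03, -0.02 and -0.12.

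Across the 3 tissues, 32 of the 72 genes were lower in every spinal cord library than in every ganglion and every cerebellum library, where 3.66% of all tested genes were. By TPM the count was 20, where 2.15% of all tested genes were, and 17 genes were in both counts. No gene of the family was higher in spinal cord than in both other tissues without overlap on either scale. Spinal cord had the lowest mean of the 3 tissues for 62 genes by CPM and for 61 by TPM. By CPM the order of means was ganglion, cerebellum, spinal cord from high to low for 54 genes, whereas by TPM that order held for 22, and cerebellum, ganglion, spinal cord for 39. The ganglion was highest without overlap for 11 genes by CPM and, by TPM, for 2 of these, mrps17 and mrpl42, where 8.87% and 4.23% of all tested genes were, so that the TPM count lay below the share of all genes. Cerebellum was highest without overlap for 2 genes by CPM and 8 by TPM, below the 15.8% and 25.4% of all tested genes.

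The third comparison asked how ganglion and cerebellum differ. Here the direction of the family depended on the scaling, and only a few genes differed in the same direction on both scales. By edgeR with TMM, 8 of 71 were higher in ganglion at 2-fold and 1 lower, where 29.6% and 22.3% of all tested genes were. At any fold 40 were higher and 3 lower, where 37.6% and 33% of all tested genes were, and the libraries did not overlap for 11 higher and 2 lower (24.1% and 23.8%). The 2-fold and non-overlapping counts thus lay below the shares of all genes in both directions, whereas the count higher at any fold lay above its share with TMM. The median log2 fold change was 0.46, against 0.07 over all tested genes.

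By limma on log2(TPM + 1) the median was -0.22, with 4 genes higher and 24 lower at any fold, and 1 higher and 4 lower at 2-fold (15.2% and 35% of all genes). The median of all genes moved as well, to -0.52, and 23.4% of all genes were higher and 50.5% lower, so the share of higher calls among all genes called at 2-fold was 30.2% on that scale and 57.1% by edgeR. Relative to the median of all genes, the family stood at 0.39 by edgeR and at 0.30 by limma on TPM. It stood at 0.42 with a pseudocount of 0.1, but at -0.06 by limma without the filter on low TPM. Without that filter the family median was -0.23, so mainly the median of all genes moved, from -0.52 to -0.17. Called higher on both scales were mrps17, mrpl22, mrpl14 and mrpl42, and mrps23, mrpl38 and mrps10 were called lower on both. The gene mrps18a, an S18 copy that sits in the large subunit of mammals, was called higher by edgeR and lower by limma on TPM. With library totals in place of TMM the counts were 19 higher and 7 lower at any fold, below the 31.5% and 38.5% of all tested genes, and without ganglion replicates 2 and 5 they were 26 and 7 (37.8% and 35.2% of all tested genes), with 2 higher and 0 lower at 2-fold (28.3% and 21.7%).

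**Figure D3:**
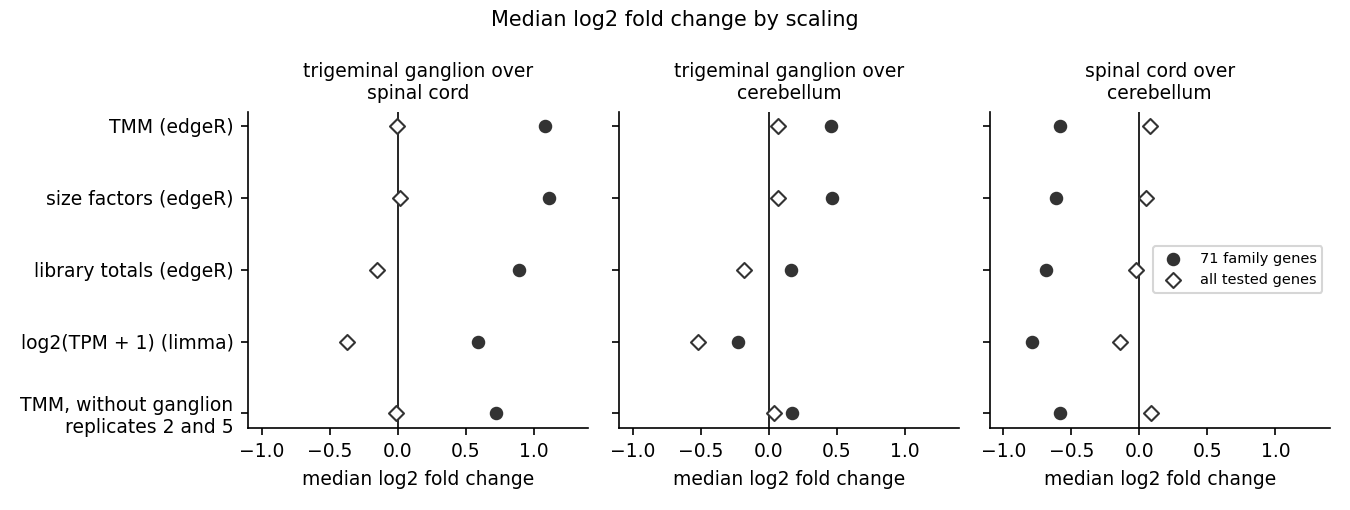
Median log2 fold change of 71 mitochondrial ribosomal protein genes (filled circles) and of all tested genes (open diamonds) under 5 ways of scaling or choosing libraries, for the 3 comparisons. In ganglion over spinal cord the family stays positive, from 1.11 to 0.59, and in spinal cord over cerebellum negative, from -0.58 to -0.79. In ganglion over cerebellum it moves across 0, at 0.46 with TMM and -0.22 by limma on TPM.

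The clearest of these genes was mrps17, with 35.0, 42.9 and 86.9 CPM in ganglion, against 11.9, 13.6 and 14.1 CPM in cerebellum. The lowest ganglion library was above the highest cerebellum library on both scales, and the log2 fold change was 2.02 ± 0.21 (adjusted p = 6.12e-08), or 1.59 without replicates 2 and 5. The gene mrpl14, whose bacterial counterpart L14 lies at the interface between the subunits, had 34.6, 40.4 and 48.7 CPM in ganglion, against 15.2, 18.8 and 21.7 CPM in cerebellum. By CPM its replicates 2 and 5 did not stand far out, at 47.8 and 34.6 CPM, though replicate 5 was the lowest ganglion library. The log2 fold change by edgeR was 1.16 ± 0.14 (adjusted p = 6.97e-07) with them and 1.16 without. By TPM the tissues overlapped, at 25.3, 48.2 and 57.7 TPM in ganglion, against 26.8, 32.4 and 36.2 TPM in cerebellum.

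For mrpl42, ganglion had 25.5, 32.1 and 77.5 CPM and cerebellum 17.1, 19.4 and 20.5 CPM, without overlap (log2 fold change 1.13 ± 0.22, adjusted p = 0.000154). For mrpl22, ganglion had 20.9, 28.5 and 122 CPM and cerebellum 10.5, 14.0 and 16.4 CPM, also without overlap (1.76 ± 0.35, adjusted p = 0.000182). Without replicates 2 and 5 these log2 fold changes were 0.66 and 0.86, at adjusted p of 0.000178 and 0.000157.

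The other genes called higher at 2-fold overlapped between the tissues. For mrps25, ganglion had 28.9, 40.8 and 395 CPM and cerebellum 31.2, 33.0 and 38.2 CPM, and the log2 fold change of 1.84 ± 0.51 (adjusted p = 0.00319) was 0.10 without replicates 2 and 5 (adjusted p = 0.496). For mrps26 it was 1.69 ± 0.42 (adjusted p = 0.00125), and 0.47 without them (adjusted p = 0.0205). For mrps6 it was 1.11 ± 0.32 (adjusted p = 0.00457), and 0.34 without them (adjusted p = 0.104). For mrpl58 it was 1.00 ± 0.44 at an adjusted p of 0.0478, a call lost when ganglion replicate 2 or 5, or any single cerebellum or spinal cord library, was left out (adjusted p of 0.0531 to 0.396), and -0.38 without replicates 2 and 5. With replicate number as a block the value for mrpl58 was 0.61 (adjusted p = 0.222). Leaving out ganglion replicate 5 alone gave 0.98 for mrps25, 1.05 for mrps26, 0.65 for mrps6 and 0.31 for mrpl58, with 4 genes of the family higher and 0 lower at 2-fold. By limma on TPM, mrps25, mrps26 and mrps6 had log2 fold changes of 0.43, 0.57 and 0.22 and were not called (adjusted p of 0.0895 to 0.396).

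Lower in ganglion at 2-fold was mrps23, particular to mitochondria, with 4.70, 18.7 and 22.6 CPM in ganglion, against 30.3, 35.9 and 38.2 CPM in cerebellum. The tissues did not overlap on either scale, and the lowest ganglion values, 4.70 and 11.1 CPM, were those of replicates 5 and 2. The log2 fold change was -1.11 ± 0.27 (adjusted p = 0.00101), and -0.79 without them (adjusted p = 0.000347). The gene mrpl38, a mitochondria-particular protein of the central protuberance, had 14.4, 29.6 and 35.1 CPM in ganglion, against 36.2, 40.5 and 46.5 CPM in cerebellum, without overlap (-0.54 ± 0.17, adjusted p = 0.00843). For mrps10 the tissues overlapped (-0.45 ± 0.19, adjusted p = 0.0392), and the call was lost without ganglion replicate 3, 4 or 5, without cerebellum replicate 3 or 4 (-0.43 to -0.36), and with these 2 tissues alone (-0.43). Neither mrps5 (-0.50 ± 0.41) nor mrpl3 (-0.30 ± 0.20), the counterpart of bacterial L3, passed by edgeR (adjusted p of 0.284 and 0.181), while by limma on TPM both were called lower, at -1.26 and -0.98. Without ganglion replicate 1, mrpl3 was called lower by edgeR as well (-0.45, adjusted p = 0.0405).

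**Figure D4:**
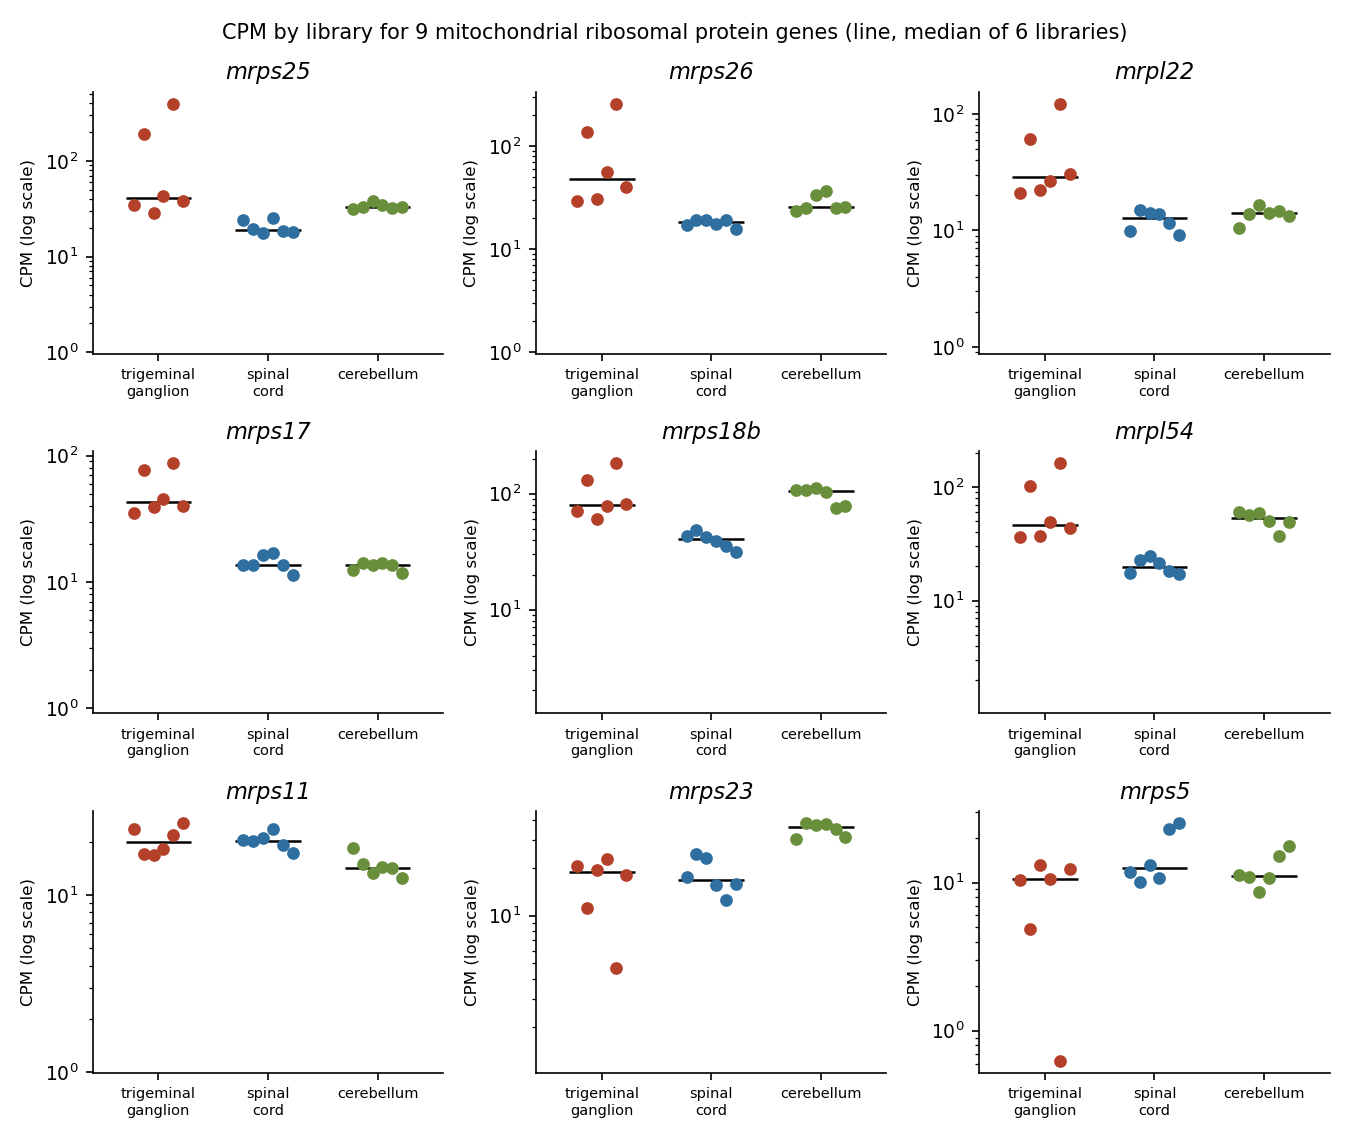
CPM by library of 9 mitochondrial ribosomal protein genes on log axes, 1 point per library in replicate order, with a line at the median of 6 libraries. In mrps25, mrps26 and mrpl22 the ganglion points of replicates 2 and 5 lie far above the rest (190 and 395 CPM in mrps25), and in mrps23 and mrps5 the same points lie below the rest (4.84 and 0.626 CPM in mrps5). In mrps17 the ganglion points lie at 35.0 CPM or more, above both other tissues. The genes mrps18b and mrpl54 are lowest in spinal cord.

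Within the ganglion most genes of the family moved together between libraries, but by unequal amounts, and some moved the other way. By log2 CPM, 61 of the 72 genes lay above their ganglion mean in replicate 2 and 48 in replicate 5. In replicates 1, 3, 4 and 6 the counts were 14, 6, 35 and 26. Relative to the mean of the other 4 ganglion libraries, the median gene stood at 1.65 in replicate 2 and at 1.60 in replicate 5. At least 2-fold above that mean were 17 genes in replicate 2 and 27 in replicate 5, while 1 and 6 genes were at or under 0.5 of it. The same 3 genes headed both lists: mrps25 with ratios of 5.23 and 10.9, mrpl58 with 4.11 and 7.61 and mrps26 with 3.48 and 6.54. At the low end stood mrps5 with 0.417 and 0.054 and mrps23 with 0.55 and 0.233. The most variable genes within tissues were mrps5, mrps25 and mrpl58. Replicate 5 was the highest of the 6 ganglion libraries for 33 genes and the lowest for 15, and replicate 2 the highest for 21 and the lowest for 2. The median log2 CPM of the family had an SD of 0.447 over the 6 ganglion libraries, 0.145 over the spinal cord libraries and 0.138 over the cerebellum libraries. These counts and ratios are in TMM-scaled CPM, and the shares of all tested genes beside them were not computed. Of all counts, the family took 0.396% in replicate 2 and 0.355% in replicate 5, against 0.267% to 0.321% in the other 4. In TMM-scaled CPM, nuclear oxidative phosphorylation genes were also highest there, at 12874 and 14899 CPM, against 6882 to 9468 CPM. The TMM factor of replicate 5, 0.611, raises its CPM, and the share of all counts taken by these genes was not computed.

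These genes are short. The length implied by counts and TPM was below that of the median tested gene for 71 of 72, with a median of 0.357 of it. Over the 71 tested genes, length and log2 fold change had a Spearman correlation of -0.41 in ganglion over spinal cord, 0.07 in spinal cord over cerebellum and -0.43 in ganglion over cerebellum. Over all 20691 tested genes the correlations were -0.22, -0.02 and -0.16 in that order. Among the 72 genes, deviations from the ganglion mean correlated with length at -0.43 in replicate 5 and -0.23 in replicate 2, and at 0.16 to 0.49 in the other 4. Over all 20691 tested genes the values were -0.03 in replicate 5, -0.15 in replicate 2 and -0.03 to 0.17 in the other 4. These correlations are across genes that share their libraries, are given as a description, and the part of length in the results was not tested. The deviations of a gene cancel over the libraries of a tissue. Opposite signs in different ganglion libraries are therefore not independent observations.

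The subunits, taken by symbol, and the structural classes had medians of the same sign. In ganglion over spinal cord, the median log2 fold change was 1.08 for 29 small-subunit genes (25 higher at any fold) and 1.12 for 42 large-subunit genes (37 higher). Of all tested genes 25.1% were higher at any fold in that comparison. In spinal cord over cerebellum the subunit medians were -0.56 (17 lower, 1 higher) and -0.60 (24 lower), where 29.3% of all tested genes were lower and 35.7% higher. The classes follow the subunit in which the protein sits in mammals, so that mrps18a and mrps30 count with the large subunit and mrps36 with neither. Genes with a bacterial counterpart had medians of 1.08 in the small subunit (17 genes, 14 higher) and 1.02 in the large subunit (26 genes, 24 higher) in ganglion over spinal cord, and genes particular to mitochondria 0.85 (9 genes, 8 higher) and 1.21 (18 genes, 15 higher). In spinal cord over cerebellum the medians of these 4 groups were -0.51, -0.56, -0.62 and -0.70. Differences between these groups were not tested. Of 6 mitochondrial ribosomal proteins with other symbols 5 were present, and all 5 were higher in ganglion than in spinal cord at any fold. At 2-fold 2 were higher (14.5% of all tested genes): gadd45gip1 at 1.38 and chchd1 at 1.06. In spinal cord over cerebellum 2 of the 5 were lower and 0 higher at any fold, with a median of -0.25, and chchd1 stood at -0.09 (adjusted p = 0.559 by edgeR). In ganglion over cerebellum 3 were higher and 0 lower (37.6% and 33% of all tested genes), with a median of 0.61.

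Other genes of mitochondrial gene expression were examined beside the ribosomal proteins, from lists put together with results of these data known. Of the listed symbols, 20 for synthetases matched 19 genes, 12 for translation factors 10 and 26 for assembly factors 23. For maintenance and transcription, 15 symbols matched 14 genes. As shares to read the counts against, 29.3% of all tested genes were lower and 35.7% higher at any fold in spinal cord over cerebellum, and 25.1% were higher and 25.2% lower in ganglion over spinal cord. Mitochondrial aminoacyl-tRNA synthetases, which charge the transfer RNAs, were lower in spinal cord than in cerebellum for 11 of 19 at any fold and higher for 0, with a median log2 fold change of -0.83; examples were rars2 at -1.57 and wars2 at -1.46. In ganglion over spinal cord, 6 of them rose and 1 fell (median 0.15). Of 10 translation factors, 7 were lower in spinal cord than in cerebellum and 0 higher (median -0.76), among them guf1 at -1.64, and 3 were higher in ganglion than in spinal cord (median 0.47), led by the elongation factor tsfm at 1.59. Of 23 factors that assemble the mitochondrial ribosome, 13 were lower in spinal cord than in cerebellum and 0 higher (median -0.52); the rRNA methyltransferase tfb1m stood at -2.07. In ganglion over spinal cord 5 of the 23 were higher, under the share of all genes, and 0 lower (median 0.23).

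Genes of mitochondrial DNA maintenance and transcription gave 6 of 14 lower and 1 higher in spinal cord over cerebellum (median -0.65), with tfb2m, a transcription factor of mitochondria, at -1.33, and 6 higher and 0 lower in ganglion over spinal cord (median 0.16). In ganglion over cerebellum these 4 lists had negative medians by edgeR, at -0.37 for the synthetases, -0.35 for translation factors, -0.30 for assembly factors and -0.04 for maintenance and transcription, and by limma on TPM at -0.996, -0.97, -0.87 and -0.76. The ribosomal proteins had 0.46 and -0.22 in that comparison.

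Further lists give a scale for the ribosomal proteins within each library, and the order of the tissues depended on the list and the measure. The oxidative phosphorylation list held 65 symbols, which matched 42 genes of the table, and the mitochondrial mass list 17 symbols, which matched 12. As shares to read these counts against, 37.6% of all tested genes were higher and 33% lower at any fold in ganglion over cerebellum. In ganglion over spinal cord 25.1% were higher and 25.2% lower, and in spinal cord over cerebellum 35.7% and 29.3%. The 42 nuclear genes of oxidative phosphorylation had a median log2 fold change of 1.15 in ganglion over spinal cord (39 higher, 0 lower at any fold), 0.07 in spinal cord over cerebellum (3 higher, 5 lower) and 1.17 in ganglion over cerebellum (39 higher, 0 lower; 0.49 by limma on TPM). The 66 cytosolic ribosomal protein genes had 1.01 (65 higher), 0.06 (5 higher, 1 lower) and 1.07 (65 higher; 0.39 by limma on TPM). The 12 genes used for mitochondrial mass had 0.23 (4 higher, 0 lower), 0.04 (0 higher, 1 lower) and 0.19 (5 higher, 0 lower), the last near the share of all genes higher. Among them the mitochondrial chaperonin subunit hspe1 stood at 1.24 in ganglion over spinal cord and 1.39 in ganglion over cerebellum. In spinal cord over cerebellum, where the mitochondrial ribosomal proteins had -0.58, these medians thus lay close to the 0.08 of all genes.

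The summed TPM of the mitochondrial ribosomal proteins per 100 TPM of oxidative phosphorylation genes does not depend on how libraries are scaled. It was 31.4, 32.9 and 33.2 in ganglion as lowest, median and highest library, 34.8, 36.9 and 38.3 in spinal cord and 51.7, 56.3 and 63.7 in cerebellum. The 3 tissues did not overlap, and ganglion replicates 2 and 5 both stood at 33.2, as did replicate 3. The order of ganglion and spinal cord turned with the measure: the median log2 CPM of the family minus that of the oxidative phosphorylation genes was -2.08 to -1.94 in ganglion, -2.15 to -2.05 in spinal cord and -1.54 to -1.24 in cerebellum, so that ganglion and spinal cord overlapped, with the higher mean in ganglion. Per 100 TPM of cytosolic ribosomal protein genes it was 4.56, 7.02 and 11.05 in ganglion, 5.63, 6.79 and 8.21 in spinal cord and 8.92, 10.5 and 13.1 in cerebellum. By that measure spinal cord lay below cerebellum without overlap, while ganglion overlapped both, with replicates 2 and 5 at 10.6 and 11.05. As a difference of median log2 CPM, all 3 tissues overlapped, at -3.78 to -2.54 in ganglion, -3.59 to -2.67 in spinal cord and -2.90 to -2.26 in cerebellum.

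Per 100 TPM of the 12 mitochondrial mass genes, the family stood at 343, 413 and 870 in ganglion, 318, 355 and 390 in spinal cord and 539, 546 and 577 in cerebellum. Spinal cord again lay below cerebellum without overlap, and ganglion, highest in replicate 5, overlapped both other tissues.

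**Figure D5:**
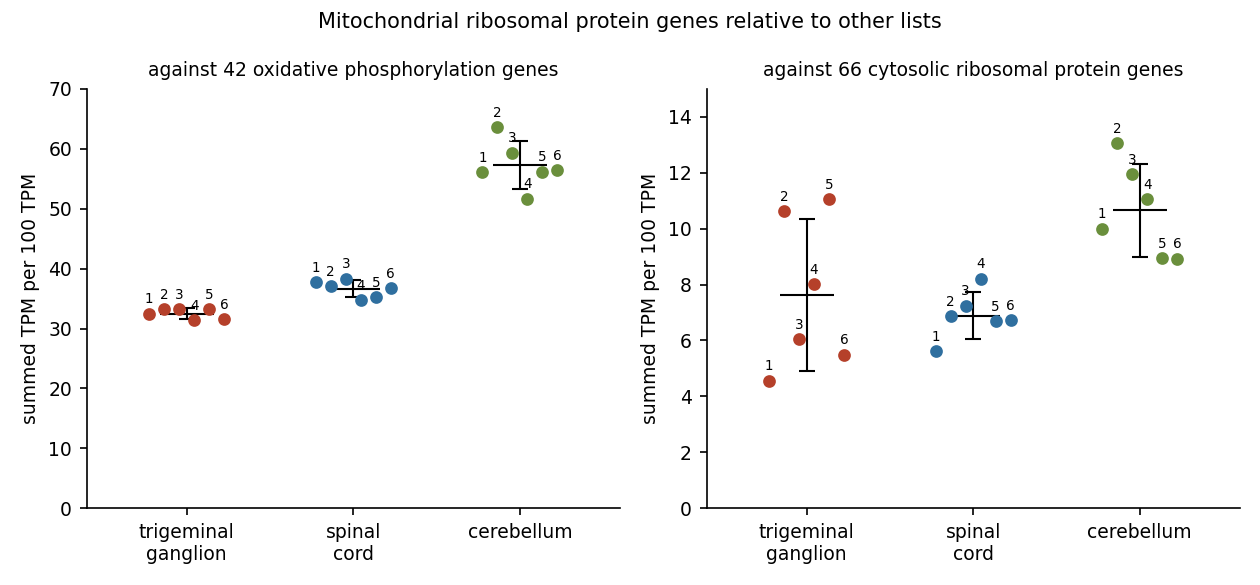
Summed TPM of 72 mitochondrial ribosomal protein genes per 100 TPM of 42 nuclear oxidative phosphorylation genes (left) and of 66 cytosolic ribosomal protein genes (right). The 42 genes are those matched from 65 listed symbols. Each numbered point is a library, and lines give the mean and SD of 6 libraries. On the left, ganglion (31.4 to 33.2) and spinal cord (34.8 to 38.3) lie below cerebellum (51.7 to 63.7) without overlap, and on the right ganglion spans 4.56 to 11.05, across both other tissues.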

How the data were processed

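RNA was extracted with TRIzol and sequenced from 6 libraries each of trigeminal ganglion, spinal cord and cerebellum; the low-input library kit, per the labels' protocols, leaves strand unmarked. The deposited table gives, per the file headers, the authors' raw read counts and TPM per gene for each library. The submitters' processing notes name CASAVA 1.8.2, Trimmomatic 0.39, STAR 2.7.7a and featureCounts from Subread 2.0.1; for the counting, a genome build, annotation or strand setting is not given in the sources used here. Reads shared between near-identical or overlapping genes were not examined.

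Counts were analysed in R 4.3.3 with edgeR 4.0.16 (filterByExpr, TMM, quasi-likelihood test over all 18 libraries, Benjamini-Hochberg adjustment over 20691 genes). A gene was called at an adjusted p of 0.05, with and without a 2-fold minimum. The approximate SE is the absolute log2 fold change over the square root of F. Alternatives were limma 3.58.1 on log2(TPM + 1) of the deposited TPM (20294 genes with a TPM of at least 1 in 6 libraries), a pseudocount of 0.1, no filters, other size factors, DESeq2 1.42.0, the 2 tissues alone, a replicate block, and each library left out. Figures were drawn with Python 3.11.15 and matplotlib 3.10.9. The count test was tried on simulated data in which few genes changed and libraries were drawn independently. That trial does not bear on the choice of scaling or on pairing. Only replicate numbers, not fish, tie libraries together in the labels. Deviations of same-numbered libraries from their tissue means had correlations of 0.124 to 0.403 for ganglion with spinal cord, and of 0.216 to 0.404 for spinal cord with cerebellum, which pairs them by this check of the data. Between ganglion and cerebellum they were 0.0759 to 0.297, with 4 of 6 pairs over 0.1. Each library of these tissues correlated best with the same-numbered library of the other, for 6 of 6 in both directions. The main test did not use the pairing, while the replicate block did. No libraries looked like duplicates (smallest chi-square per degree of freedom 11.0). If libraries of a tissue are not separate fish, p-values measure only the spread between these samples.

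The members and gene lists were chosen with earlier results of these data known. Genes are named as the 5 highest and 5 lowest log2 fold changes per comparison, those called at 2-fold up to 20, the 4 highest and 3 lowest in TPM and the 3 most variable within tissues. Other lists give up to 3 called genes.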

Additional observations from a re-analysis of the deposited data

Results flagged for a closer look

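In 114 groups of 6 libraries checked for a single value far from the rest, 2 stood out, and chance gives such a value in about 1 in 20 groups. In spinal cord replicate 1, mrpl15 had 15.4 CPM, against 19.4 to 21.7 CPM in the other 5 spinal cord libraries. In ganglion replicate 5, mrpl4 had 152 CPM, against 23.9 to 69.4 CPM in the other 5 ganglion libraries. The check takes the gap to the next value, so 2 libraries that deviate together can hide each other. It did not flag mrps25 in ganglion, where replicates 2 and 5 stood at 5.23 and 10.9 times the mean of the remaining libraries.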

How the results depend on the processing

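Medians and counts at 2-fold changed little with relative log expression size factors, DESeq2, no count filter, the 2 tissues alone or the replicate block. Some counts at any fold moved more. In spinal cord over cerebellum 54 genes were lower with the 2 tissues alone (36.7% of all tested genes), against 41 in the main test. DESeq2 and the block each gave 46 (31.5% and 30.6%). In ganglion over cerebellum 34 were higher with the 2 tissues alone and without the count filter (36% and 32.6%), against 40. With the block, ganglion over spinal cord gave 38 genes higher at 2-fold (13.9% of all tested genes), with a family median of 1.04. Spinal cord over cerebellum gave 8 lower (16.6% of all tested genes, family median -0.59). Ganglion over cerebellum gave 6 higher and 1 lower (29% and 23.4%, family median 0.41). The block ended the call of mrpl58 at any fold and brought mrps6 in ganglion over cerebellum under 2-fold (0.90). It changed no other call of a gene in a comparison that gene is named for. With library totals, ganglion over cerebellum gave 4 higher at 2-fold (25.2% of all tested genes) and 19 higher and 7 lower at any fold (31.5% and 38.5%). Spinal cord over cerebellum gave 15 lower at 2-fold (18.6%) and 0 higher at any fold (32.6%). By the same scaling mrps11 in ganglion over spinal cord was -0.13 and mrps17 in spinal cord over cerebellum -0.00195. Without the count filter mrps11 in ganglion over spinal cord was -0.00826.

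By limma on TPM with a pseudocount of 1, ganglion over cerebellum gave 1 higher and 4 lower at 2-fold (15.2% and 35% of all genes). At any fold it gave 4 and 24 (23.4% and 50.5%), with a median of -0.22. Ganglion over spinal cord gave 10 and 1 at 2-fold (5.92% and 21.4%), 2 lower at any fold (40.9%) and a median of 0.59. Spinal cord over cerebellum gave 17 lower at 2-fold (19.1%), 0 higher at any fold (29.6%) and a median of -0.79. In the same order, a pseudocount of 0.1 gave 1 and 5 (18.8% and 39.6% of all genes), 4 and 24 (23.6% and 50.4%), and -0.23. Then came 11 and 1 (7.02% and 27.7%), 2 (40.4%) and 0.60, then 17 (21.5%), 0 (29%) and -0.79. No TPM filter gave 1 and 4 (11.7% and 26.7%), 4 and 24 (20.1% and 40.7%), and -0.23. Then came 10 and 1 (4.61% and 16.3%), 2 (32.6%) and 0.59, then 17 (14.6%), 0 (25.2%) and -0.78. Against edgeR, 43 genes had the opposite sign in ganglion over cerebellum, 7 in ganglion over spinal cord and 6 in spinal cord over cerebellum. Among the named values these were, at the pseudocounts of 1 and 0.1, mrpl58 (-0.17 and -0.17) in ganglion over cerebellum, mrpl15 (-0.27 and -0.30) and mrps11 (-0.40 and -0.41) in ganglion over spinal cord, and mrpl55 (-0.035 and -0.036), mrps15 (-0.023 and -0.020) and mrps17 (-0.12 and -0.12) in spinal cord over cerebellum.

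Without ganglion replicates 2 and 5, ganglion over cerebellum gave 2 higher and 0 lower at 2-fold (28.3% and 21.7% of all tested genes). At any fold it gave 26 and 7 (37.8% and 35.2%), and ganglion over spinal cord gave 16 higher at 2-fold (10.7%). In ganglion, mrpl58 was then -0.38 over cerebellum, and mrpl3 and mrps23 were 0.15 and 0.15 over spinal cord. Without the 4 libraries highest in acta1, mrps11 in ganglion over spinal cord was -0.035, and spinal cord over cerebellum had 0 higher at any fold (30.5% of all tested genes). Leaving out 1 library at a time gave 4 to 11 higher and 0 to 1 lower at 2-fold in ganglion over cerebellum (both lowest without ganglion replicate 5). These counts lay below the 28.9% to 30% and 21.6% to 22.8% of all tested genes. At any fold 27 to 44 were higher (36% to 37.7% of all tested genes) and 2 to 4 lower (31.6% to 34.3%), with medians of 0.34 to 0.57. At 2-fold, leaving out 1 library gave 32 to 45 higher in ganglion over spinal cord (12.3% to 16.2% of all tested genes). In spinal cord over cerebellum it gave 8 to 11 lower (15.9% to 17%). Among the named values, signs turned in mrps11 (-0.054 to 0.10), mrpl3 (-0.27 to 0.030) and mrps23 (-0.29 to 0.019) in ganglion over spinal cord and in mrps15 (-0.057 to 0.21) in spinal cord over cerebellum. The cause of these changes was not tested. Depth limits mrpl16, with at most 17 counts in a library. In ganglion replicate 5, mrps5 had only 4 counts. The summed counts of that library, 10464434, were close to the 10413024 of replicate 2, and the cause of the low value was not tested.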
